A study of Homo sapiens with 10 samples.

Results

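The genes described here are 9 transcription factors that set or mark epithelial lineage in the lung and its neighbouring organs: NKX2-1, FOXA1, FOXA2, HNF4A, SOX2, SOX9, GATA6, TP63 and ELF3. They were taken by symbol from a table of raw read counts with values for 62709 genes, and all 9 were found. The cells were H441, an established human lung adenocarcinoma line, and RNA was read by total RNA sequencing in 10 libraries. WT denotes 3 wild-type libraries and KO 3 libraries of cells derived from that line in which TET1, a dioxygenase that starts the removal of DNA methylation, was knocked out with CRISPR-Cas9. OE denotes 2 libraries of cells transiently transfected with a plasmid for full-length human TET1, and Lipo 2 libraries that carry the same untreated wild-type label as WT but a different title, which the labels leave unexplained. The labels name no transfection control, no promoter for the plasmid and no clone for KO. Nor do they tie replicates to separate cultures, and the p-values then measure only how far these libraries spread, which may be technical.

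Lineage transcription factors bind DNA at the enhancers and promoters of genes that define a cell type, and combinations of them are used to tell lung tumour subtypes apart. NKX2-1 is the homeodomain factor of lung and thyroid and acts on surfactant genes. FOXA1 and FOXA2 are forkhead pioneer factors that open chromatin in endoderm, and HNF4A is a nuclear receptor of liver and gut. In the developing airway SOX2 marks the proximal, conducting part and SOX9 the distal tips. GATA6 is a zinc finger factor of endoderm and lung, TP63 is the p53 relative of basal and squamous cells, and ELF3 is an epithelial ETS factor.

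Total counts per library were between 20994462 and 25981097. Mitochondrially encoded genes took 8.04% and 8.72% of counts in Lipo and between 4.74% and 7.25% elsewhere. Replicates differed by more than counting noise in each group, with a chi-square per degree of freedom between 4.88 (OE 1 and OE 2) and 65.0 (KO 1 and KO 3). TET1 had 0 to 8 reads per library outside OE and 17883 and 20805 reads in OE 1 and OE 2, which bears out the OE labels, whereas with so few reads in WT the KO labels could not be checked this way. The labelled epithelial cell type was borne out by the sum of 8 epithelial markers, which lay between 8554 and 13619 CPM (counts per 1000000 reads of scaled library size) in the 10 libraries. CLDN7, 1 of these 8, was all but absent, with 2 to 14 reads per library. Of 14 markers of blood, endothelial and stromal cells, the stromal genes DCN and PDGFRB had no reads in any group, and COL1A2 had none in WT, Lipo or OE. The sum of the 14 was 59.5 to 71.8 CPM in KO, 160 to 277 in WT, 156 to 165 in Lipo and 307 to 320 in OE, and most of it was the collagen chain COL1A1. Among the epithelial markers, 2 of 8 fell in KO against WT and 1 rose in OE against Lipo. The shares of all tested genes doing so were 7.45% and 6.79%. CDH1 and KRT7 fell in KO, and CDH1 was also lower against Lipo (log2 -0.53, adjusted p = 0.00726). KRT7 did not pass there (-0.24, adjusted p = 0.245), nor in KO against WT without WT 2, WT 3, KO 1 or KO 2. In OE, KRT7 rose by 0.63 on the log2 scale. That call needed both Lipo and both OE libraries. The part of these markers in the results below was not tested.

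Because TET1 acts on cytosines that precede a guanine, the upstream promoters of the members with the largest change in KO (SOX2) and with the same change in OE against either control (GATA6) are shown with each CG pair in capitals. Both come from RefSeq on build GRCh38.p14 and are cut off before the first exon base of the gene in GENCODE release 29. The SOX2 stretch is chr3:181711675-181711923 and the GATA6 stretch chr18:22169339-22169442, both on the plus strand and written 5′ to 3′.
SOX2: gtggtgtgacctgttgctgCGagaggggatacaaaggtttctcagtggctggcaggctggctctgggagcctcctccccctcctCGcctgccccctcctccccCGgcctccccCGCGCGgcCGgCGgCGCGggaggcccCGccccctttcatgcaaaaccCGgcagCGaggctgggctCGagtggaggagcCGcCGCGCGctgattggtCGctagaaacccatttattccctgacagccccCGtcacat
GATA6: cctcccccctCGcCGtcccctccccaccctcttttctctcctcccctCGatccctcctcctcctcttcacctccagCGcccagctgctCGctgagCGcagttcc
In the full 250 bases before the RefSeq start, SOX2 had 20 CG pairs and GATA6 16, against a median of 11 over 35116 RefSeq promoters of that length. Of these promoters, 67.6% had fewer CG pairs than SOX2 and 59.0% fewer than GATA6. The word ACAAAG, a core of SOX binding sites, was searched on both strands and occurred in the SOX2 window, as it did in 13.7% of all promoters. No methylation was measured here, so the letters describe the promoters and not their state.

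NKX2-1, FOXA1 and ELF3 were the abundant members and HNF4A was all but silent. Per kilobase of exon, the level of NKX2-1 in WT was 81.7 ± 7.51 RPKM (CPM per kilobase of exon, SD, n = 3), that of FOXA1 69.6 ± 0.222 and that of ELF3 60.4 ± 3.95. These levels exceeded those of 97.0%, 96.3% and 95.8% of the tested genes with a known length. SOX2 came next at 11.3 ± 1.80 RPKM, followed by TP63 at 3.01 ± 0.388, SOX9 at 2.83 ± 0.298, GATA6 at 1.17 ± 0.268 and FOXA2 at 0.579 ± 0.0584. In WT the libraries of TP63 and SOX9 overlapped, while all other neighbours in this order were separate.

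NKX2-1, FOXA1 and ELF3 held the first 3 places and SOX2 the fourth in every group, but the order within the first 3 and among the scarcer members differed between groups. The order within the first 3 rests on dividing by all annotated exon bases, 3165 for NKX2-1, 3982 for FOXA1 and 7191 for ELF3. In CPM, without that division, ELF3 was the highest of the 3 in every group. Differences of these 3 between groups, given below, did not pass with all 10 libraries fitted. In KO the levels of NKX2-1, FOXA1 and ELF3 (85.2 ± 16.1, 72.1 ± 3.39 and 63.8 ± 10.3 RPKM) overlapped between neighbours. In Lipo, FOXA1 stood first at 86.9 ± 3.52 RPKM (n = 2), and FOXA2, at 2.03 ± 0.118 RPKM, was level with TP63 at 2.01 ± 0.0815. In OE the order of the first 3 was the reverse of that in WT, with ELF3 at 78.3 ± 0.408 RPKM, FOXA1 at 76.1 ± 2.68 and NKX2-1 at 67.7 ± 0.439. SOX9, at 5.89 ± 0.0502 RPKM, stood above both GATA6 (3.36 ± 0.381) and TP63 (3.19 ± 0.0259).

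**Figure D1:**
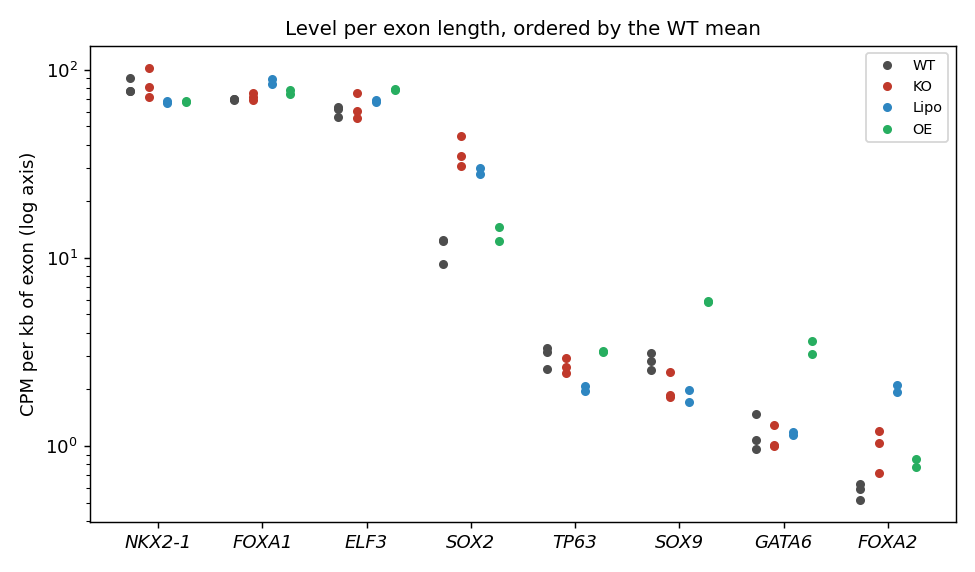
Level of 8 factors in each library, in CPM per kilobase of exon on a log axis, with factors ordered by their WT mean and groups in colour. NKX2-1, FOXA1 and ELF3 lie together near the top in all groups, and FOXA2, SOX2, SOX9 and GATA6 spread further between groups than these 3.

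HNF4A, which lies at chromosome 20, 44355700 to 44434596 (GRCh38, plus strand), had 1 read in KO 1 and none in the other 9 libraries. A count of 0 allowed up to 0.0416 CPM over the WT libraries together, 0.0653 CPM over Lipo and 0.0714 CPM over OE, which covers counting error only. It did not pass the filter on low counts, so 8 of the 9 members were tested.

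Of the 8 tested members, 1 rose and none fell in KO against WT, where 5.13% of all 15832 tested genes rose and 7.45% fell. In OE against Lipo 3 rose and 2 fell, with 6.79% and 5.53% of all genes doing so. In Lipo against WT 2 rose and none fell, with 1.32% and 2.38% of all genes. The same shares of all genes apply to the counts of the gene lists below in these comparisons. The median log2 change of the 8 was 0.06, 0.10 and 0.09 in these comparisons, beside 0.00, -0.01 and -0.02 over all tested genes. KO and Lipo were set against the same WT libraries, and Lipo served as control for OE. The CPM of the groups compared did not overlap for 3 of the 8 members in KO against WT, for 7 in OE against Lipo and for 7 in Lipo against WT, beside 27.6%, 65.6% and 43.6% of all tested genes.

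Other choices of control gave other counts. Against Lipo, none of the 8 rose and 1 fell in KO, with 7.98% and 9.42% of all genes, and against all 5 wild-type-labelled libraries none was called (SOX2 alone had an unadjusted p under 0.05), with 5.19% and 7.74%. For OE, 2 rose and none fell both against WT, with 12.3% and 12.6% of all genes, and against all 5 libraries, with 8.84% and 8.36%.

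**Figure D2:**
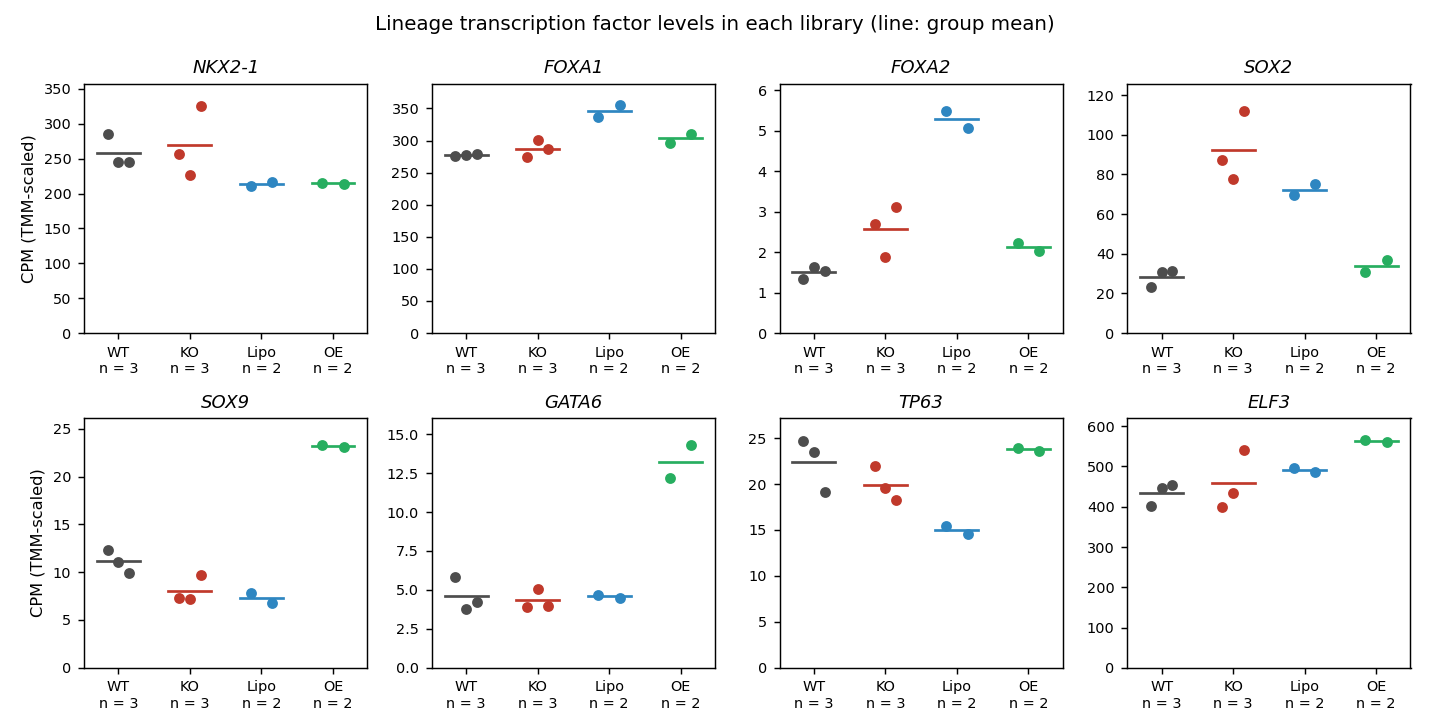
Level of each tested factor in CPM, with 1 point per library, a line at the group mean and every axis starting at 0. SOX2 was high in both KO and Lipo, FOXA2 was highest in Lipo, and SOX9 and GATA6 were highest in OE.

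SOX2 (chromosome 3, 181711924 to 181714436, plus strand, a gene of 1 exon) showed the largest change of any member in KO. Its level was 23.3, 30.9 and 31.3 CPM in WT 1 to 3 and 87.1, 77.8 and 112 CPM in KO 1 to 3. Lipo 2 and 3 held 69.8 and 75.1 CPM, and OE 1 and 2 held 31.0 and 36.8 CPM. Every KO and Lipo library thus lay above every WT and OE library. SOX2 rose 3.24-fold in KO against WT (log2 1.69, SE 0.16, adjusted p = 6.17e-06), in 3 of 3 libraries. It also rose 2.54-fold in Lipo against WT (log2 1.34, SE 0.17, adjusted p = 0.00108), a comparison of libraries with the same treatment label. WT 1 stood apart from the other WT libraries, and without WT 1 and KO 1 together the KO change of SOX2 was 1.60.

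What was seen for SOX2 depended on the control. Against Lipo in place of WT, the log2 difference of KO was 0.35 (SE 0.18, adjusted p = 0.187), and against all 5 wild-type-labelled libraries by 1.00 (adjusted p = 0.0801). OE lay lower than Lipo by a log2 change of -1.10 (SE 0.20, adjusted p = 0.00193), whereas against WT it stood at 0.25 (SE 0.18, adjusted p = 0.332). Set directly against OE, KO was 2.72-fold higher (adjusted p = 3.22e-05). The long noncoding SOX2-OT, within whose span SOX2 lies without shared exon bases, had 16 reads over WT, 51 over KO, 34 over Lipo and 8 over OE, and passed the test in none of the comparisons.

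FOXA2 (chromosome 20, 22581005 to 22585455, minus strand) was scarce, and its highest level was in Lipo. Its level was 1.34, 1.64 and 1.53 CPM in WT, 2.69, 1.88 and 3.12 CPM in KO, 5.50 and 5.06 CPM in Lipo and 2.22 and 2.02 CPM in OE. These rest on 31 to 132 reads per library. Every Lipo library lay above every other library, and every WT library below. FOXA2 rose 3.49-fold in Lipo against WT (log2 1.80, SE 0.30, adjusted p = 0.00477), though not past the threshold without Lipo 2 (0.0747) or Lipo 3 (0.0742). The KO value against WT was 0.76 (log2, SE 0.28, adjusted p = 0.0961) and was called without KO 2 (0.95, adjusted p = 0.0444).

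Against Lipo, the log2 change of FOXA2 was -1.04 in KO (adjusted p = 0.0249) and -1.31 in OE (SE 0.34, adjusted p = 0.0191). The call in OE was lost without any 1 of Lipo 2 (adjusted p = 0.122), Lipo 3 (0.0927), OE 1 (0.102) and OE 2 (0.123). Against WT the OE value was 0.49 (SE 0.32, adjusted p = 0.281), so the sign for FOXA2 in both KO and OE turned with the control. The mitochondrial share of counts was higher in both Lipo libraries than in any other, and its part in the Lipo values of FOXA2 and SOX2 was not tested.

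FOXA1 (chromosome 14, 37589984 to 37596059, minus strand) moved far less than its relative. WT held 276, 277 and 278 CPM, KO 274, 301 and 286, Lipo 336 and 356, and OE 296 and 311. Lipo lay above all other libraries, by a log2 difference from WT of 0.32 (SE 0.11, adjusted p = 0.135). The values in KO against WT (0.05, SE 0.10) and in OE against Lipo (-0.19, SE 0.12, adjusted p = 0.355) did not pass either. The Lipo difference passed without WT 1 and KO 1 together (0.0400), and with OE and Lipo fitted alone both FOXA1 (-0.19, adjusted p = 0.0024) and ELF3 (0.19, adjusted p = 6.5e-04) were called.

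SOX9 (chromosome 17, 72121020 to 72126420, plus strand) and GATA6 (chromosome 18, 22169443 to 22202528, plus strand) rose in OE whichever wild-type libraries served as control. SOX9 stood at 12.3, 11.1 and 9.95 CPM in WT, 7.32, 7.15 and 9.74 in KO, 7.83 and 6.75 in Lipo and 23.3 and 23.0 in OE. Both OE libraries lay far above the other 8, and the highest KO library was just below the lowest WT library. SOX9 rose 3.18-fold in OE against Lipo (log2 1.67, SE 0.22, adjusted p = 1.21e-04) and 2.08-fold against WT (adjusted p = 0.00104). In KO against WT the value was -0.46 (SE 0.18, adjusted p = 0.103), called without KO 3 (-0.62, adjusted p = 0.0359), and in Lipo against WT it was -0.61 (SE 0.20, adjusted p = 0.116).

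GATA6 was at 5.80, 3.78 and 4.25 CPM in WT, 3.93, 5.08 and 3.98 in KO, 4.70 and 4.51 in Lipo and 12.2 and 14.3 in OE. WT, KO and Lipo overlapped throughout, and the OE libraries stood apart. GATA6 rose 2.87-fold in OE against Lipo (log2 1.52, SE 0.26, adjusted p = 0.00156), and the log2 change against WT was also 1.52 (adjusted p = 3.16e-04). With each library left out in turn it stayed between 1.39 and 1.63 and past the threshold. In KO against WT the log2 value was -0.09 (SE 0.22, adjusted p = 0.852), and in Lipo against WT 0.00 (SE 0.25).

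**Figure D3:**
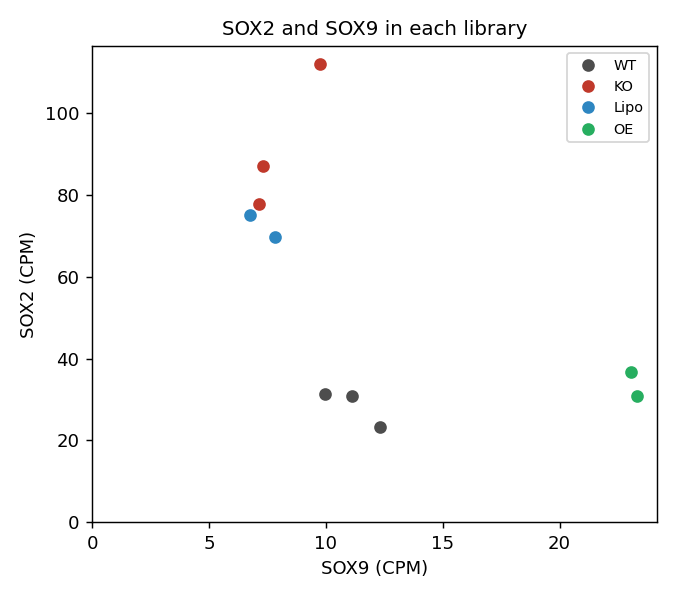
SOX2 against SOX9 in each of the 10 libraries, in CPM on linear axes that start at 0. KO and Lipo sit at the upper left, WT at the lower left, and OE at the lower right with SOX9 at 23.0 and 23.3 CPM.

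The ratio of SOX2 to SOX9 reads within a library, which needs no scaling between libraries, was chosen after the values had been seen and is given without a test. It was 1.89, 2.78 and 3.15 in WT 1 to 3 and 11.9, 10.9 and 11.5 in KO 1 to 3. Lipo 2 and 3 had 8.91 and 11.1, and OE 1 and 2 had 1.33 and 1.60. KO and Lipo overlapped in this ratio, WT lay lower, and OE lay lowest.

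TP63 (chromosome 3, 189631416 to 189897279, plus strand) had 24.6, 23.5 and 19.1 CPM in WT, 21.9, 19.5 and 18.3 in KO, 15.4 and 14.6 in Lipo and 23.9 and 23.6 in OE. The Lipo libraries were the lowest, and OE lay within the range of WT. TP63 rose 1.58-fold in OE against Lipo (log2 0.66, SE 0.18, adjusted p = 0.0273), but the adjusted p was 0.140, 0.209, 0.153 and 0.139 without Lipo 2, Lipo 3, OE 1 and OE 2. Against WT the OE value was 0.08 (SE 0.16, adjusted p = 0.742). Lipo against WT gave -0.58 (SE 0.17, adjusted p = 0.0730) and KO against WT -0.17 (SE 0.15, adjusted p = 0.506). The former passed without KO 1 (0.0439) or KO 3 (0.0432), which enter through the shared error estimate, and with DESeq2 (0.0320), but not without WT 1 and KO 1 together (-0.51).

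NKX2-1 (chromosome 14, 36516392 to 36521149, minus strand) and ELF3 (chromosome 1, 202007945 to 202017188, plus strand) passed in none of these comparisons with all 10 libraries fitted. NKX2-1 was at 286, 245 and 245 CPM in WT, 257, 226 and 325 in KO, 212 and 217 in Lipo and 215 and 213 in OE. Its log2 differences were 0.06 in KO against WT (SE 0.13), 0.00 in OE against Lipo (SE 0.16) and -0.27 in Lipo against WT (SE 0.15, adjusted p = 0.353). KO 3 was the highest library for NKX2-1 as for SOX2, and without it the KO value of NKX2-1 was -0.10. ELF3 was at 402, 447 and 455 CPM in WT, 400, 434 and 542 in KO, 497 and 487 in Lipo and 565 and 561 in OE. OE was above every other library for ELF3, with log2 differences of 0.20 from Lipo (SE 0.15, adjusted p = 0.442) and of 0.37 from WT (SE 0.13, adjusted p = 0.0547).

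**Figure D4:**
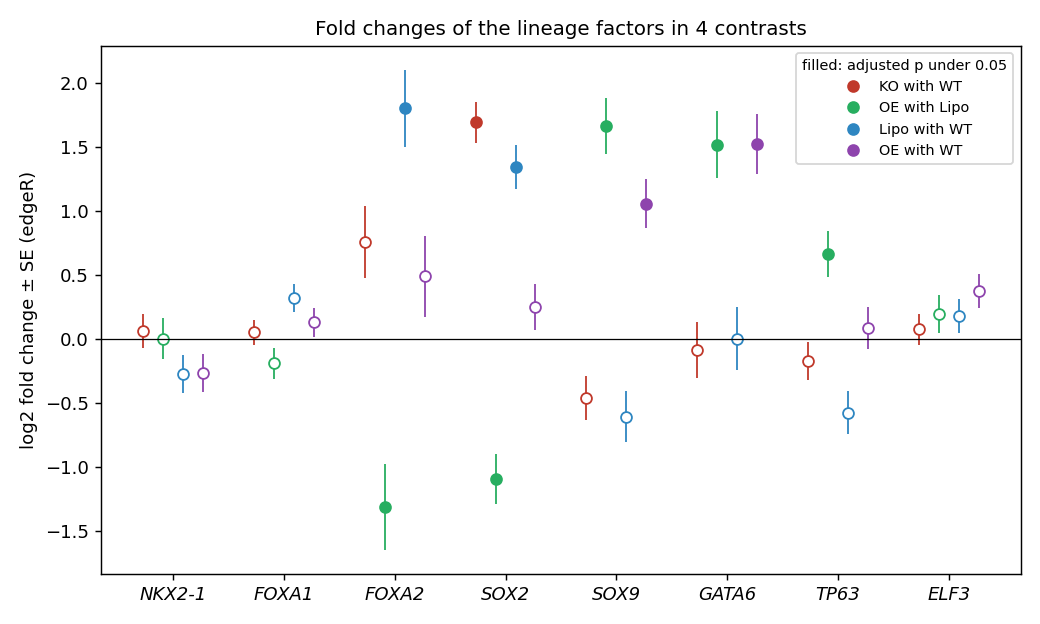
Log2 fold change with its standard error for the 8 tested factors in KO against WT, OE against Lipo, Lipo against WT and OE against WT. Filled points passed an adjusted p of 0.05. SOX9 and GATA6 are filled and positive for OE against either control, whereas SOX2 and FOXA2 are filled and negative for OE only against Lipo.

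The KO effect (KO less WT) and the OE effect (OE less Lipo) differed for 5 of the 8 members, 2 with the KO effect higher and 3 with it lower, beside 7.16% and 9.47% of all genes. The log2 difference was 2.79 for SOX2 (SE 0.26, adjusted p = 2.80e-06) and 2.07 for FOXA2 (SE 0.44, adjusted p = 0.00468). It was -2.13 for SOX9 (SE 0.28, adjusted p = 9.71e-05), -1.61 for GATA6 (SE 0.34, adjusted p = 0.00491) and -0.83 for TP63 (SE 0.23, adjusted p = 0.0241). The call for TP63 was lost without WT 2 (adjusted p = 0.0663), Lipo 2 (0.0832), Lipo 3 (0.122), OE 1 (0.0962) or OE 2 (0.0904). These differences include that between the WT and Lipo controls. With KO set directly against OE, as a common control would do, 1 of the 8 was higher and 2 lower, beside 18.2% and 19.2% of all genes. SOX2 (1.45, adjusted p = 3.22e-05), SOX9 (-1.52, adjusted p = 2.56e-05) and GATA6 (-1.61, adjusted p = 1.03e-04) differed, while FOXA2 (0.27, adjusted p = 0.530) and TP63 (-0.26, adjusted p = 0.236) did not pass.

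At the NKX2-1 locus, 2 neighbours fell in OE against Lipo while NKX2-1 did not pass. SFTA3, a neighbour of NKX2-1, was at 66.1 and 61.7 CPM in Lipo and 30.7 and 30.1 CPM in OE, and fell by 1.07 on the log2 scale (adjusted p = 1.27e-04). NKX2-1-AS1, an antisense transcript that shares 402 exon bases with NKX2-1, went from 20.7 ± 2.12 to 10.5 ± 0.563 CPM (n = 2 each) and fell by 0.99 (adjusted p = 0.0245). NKX2-1 itself differed by 0.00 in that comparison. Reads per library of NKX2-1 for each read of NKX2-1-AS1 were 9.51 and 11.3 in Lipo and 21.4 and 19.7 in OE. The call for NKX2-1-AS1 was lost without any 1 of Lipo 2 (adjusted p = 0.153), Lipo 3 (0.0768), OE 1 (0.162) and OE 2 (0.107). Whether counting used strand is not given in the sources used here, so reads of NKX2-1 and its antisense partner cannot be told apart with certainty.

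Of 13 neighbouring and antisense genes listed, 12 were in the table and 9 were tested. None rose and 3 fell in OE against Lipo, the third being TPRG1 beside TP63 (1.57 ± 0.101 to 0.352 ± 0.218 CPM), while TP63 rose. The number that fell was 1 without Lipo 2, Lipo 3 or OE 1, and with OE and Lipo fitted alone 5 of the listed genes were called. None passed in KO against WT, and none in Lipo against WT. RNPEP beside ELF3 was at 87.9, 96.7 and 110 CPM in KO and at 128 and 132 CPM in Lipo, and its log2 difference of -0.40 between these groups passed (adjusted p = 0.0409). In KO against WT it was -0.26, which passed without KO 3. ELF3-AS1, named after its values were seen because it shares 664 exon bases with ELF3, had 517, 623 and 527 reads in WT and 652, 830 and 840 in KO. It had 535 and 482 reads in Lipo and 406 and 434 in OE. These reads are not scaled, and no test of them is given here. The unknown strand setting limits the values of ELF3 and ELF3-AS1, and of GATA6 and GATA6-AS1, in the same way as those of the NKX2-1 pair. GATA6-AS1, which shares 240 exon bases with GATA6, had 20 reads over all 10 libraries, SOX9-AS1 had 9 and HNF4A-AS1 none. The intergenic LINC00261, which neighbours FOXA2, was at or under 0.327 CPM on average in each group, and MIPOL1 and TTC6 beside FOXA1 and NKX2-8 beside NKX2-1 passed in none of the 3 comparisons with all 10 libraries fitted. MIPOL1 passed in OE against Lipo without WT 1 and KO 1 together and, like RNPEP, with OE and Lipo fitted alone.

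Relatives of the members in the SOX, GATA, ETS, forkhead, nuclear receptor and p53 families mostly had too few reads to test, with 13 of 35 tested. The 3 that rose in KO against WT, where none fell, were SOX13 (20.2 ± 5.09 to 38.2 ± 7.66 CPM, log2 0.92), GATA3 (1.82 ± 0.374 to 4.62 ± 0.815 CPM, log2 1.34) and SOX12 (36.3 ± 2.43 to 50.8 ± 8.33 CPM, log2 0.49), of which SOX12 kept its call without KO 1 but not without any other single library. The median over the 13 was 0.12, and 0.00 over all genes. In OE against Lipo 1 rose, the ETS factor ELF4 (100 ± 4.33 to 214 ± 0.256 CPM, log2 1.09, adjusted p = 2.58e-04), and none fell, beside 6.79% and 5.53% of all genes. That count was 2 without KO 1 or KO 3, with library size alone, with no filter or with DESeq2, 3 without WT 1 and KO 1 together, 6 against WT and 8 when OE and Lipo alone were fitted. SOX4, a SOX factor common in epithelial tumours, rose in Lipo against WT (128 ± 8.60 to 223 ± 10.1 CPM, log2 0.80), though not past the threshold without Lipo 3 (adjusted p = 0.105).

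Among 56 other transcription factors of lung and airway epithelium, 37 were tested. In KO against WT 3 rose and 6 fell, beside 5.13% and 7.45% of all genes. The count of 9 was 5 when WT and KO alone were fitted. The Iroquois homeobox factor IRX2 fell from 9.10 ± 0.739 to 0.826 ± 0.424 CPM (log2 -3.44, adjusted p = 2.55e-06). NFIA, a nuclear factor I protein, rose from 35.4 ± 4.29 to 60.9 ± 5.85 CPM. HOPX, a homeodomain-only protein of alveolar cells, fell from 96.9 ± 7.69 to 50.9 ± 6.72 CPM against WT, but stood at -0.06 on the log2 scale against Lipo. RARB, a retinoic acid receptor, had 65 reads over WT and 3 over KO.

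Of the 37, 4 rose and 4 fell in OE against Lipo, beside 6.79% and 5.53% of all genes. KLF4, a Krüppel-like factor of differentiating epithelium, rose from 22.5 ± 1.26 to 56.0 ± 0.703 CPM, while NFIA fell from 39.6 ± 0.813 to 19.9 ± 2.19 CPM and HOPX from 53.1 ± 1.03 to 27.5 ± 1.69 CPM (log2 -0.95, and -1.82 against WT). ID1, an inhibitor of helix-loop-helix factors, fell from 169 ± 0.255 to 93.6 ± 1.64 CPM, with its call lost without OE 1 (adjusted p = 0.0509) or OE 2 (0.0528) and against WT (log2 -0.26). The count of 8 was 4 without Lipo 2 or OE 1, 5 without Lipo 3 or OE 2, 14 without WT 1 and KO 1 together, 16 against WT and 20 when OE and Lipo alone were fitted. NFIA thus rose in KO and fell in OE, and the 2 effects on it differed (log2 1.77, adjusted p = 5.14e-05).

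Several lung differentiation genes regulated by NKX2-1 changed in comparisons in which NKX2-1 itself did not pass. Of 26 listed, 17 were tested. HOPX is also in the list of other transcription factors above and SFTA3 in that of neighbouring genes, so their calls are counted in both lists. In KO against WT 1 rose and 4 fell, in OE against Lipo 2 rose and 7 fell, and in Lipo against WT 1 rose and 7 fell, with medians of -0.20, -0.39 and -0.67. Of all tested genes, 5.13% rose and 7.45% fell in KO against WT. The shares were 6.79% and 5.53% in OE against Lipo, and 1.32% and 2.38% in Lipo against WT. Surfactant protein B, SFTPB, had the lowest level in OE (29.7 ± 0.586 CPM) and the highest in WT (195 ± 20.4 CPM), and its log2 change in KO was -1.97 against WT and -0.62 against Lipo (adjusted p = 0.0145). LMO3, a LIM-only cofactor, fell in KO from 106 ± 19.0 to 49.5 ± 6.82 CPM against WT and was at -0.44 on the log2 scale against Lipo (adjusted p = 0.0783). SLC34A2, the phosphate transporter of type 2 cells, fell in KO from 1337 ± 280.3 to 474 ± 34.8 CPM and was at 1299 ± 74.2 in Lipo. LAMP3, a lysosomal protein of type 2 cells, rose in OE from 3.62 ± 0.109 to 224 ± 1.17 CPM (log2 5.95, adjusted p = 1.70e-07), while SFTPB fell. The 9 calls in OE became 5 without OE 2 and 16 with OE and Lipo fitted alone, and the 8 in Lipo became 2 without Lipo 2 or Lipo 3 and 5 without WT 2, WT 3, OE 1 or OE 2.

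**Figure D5:**
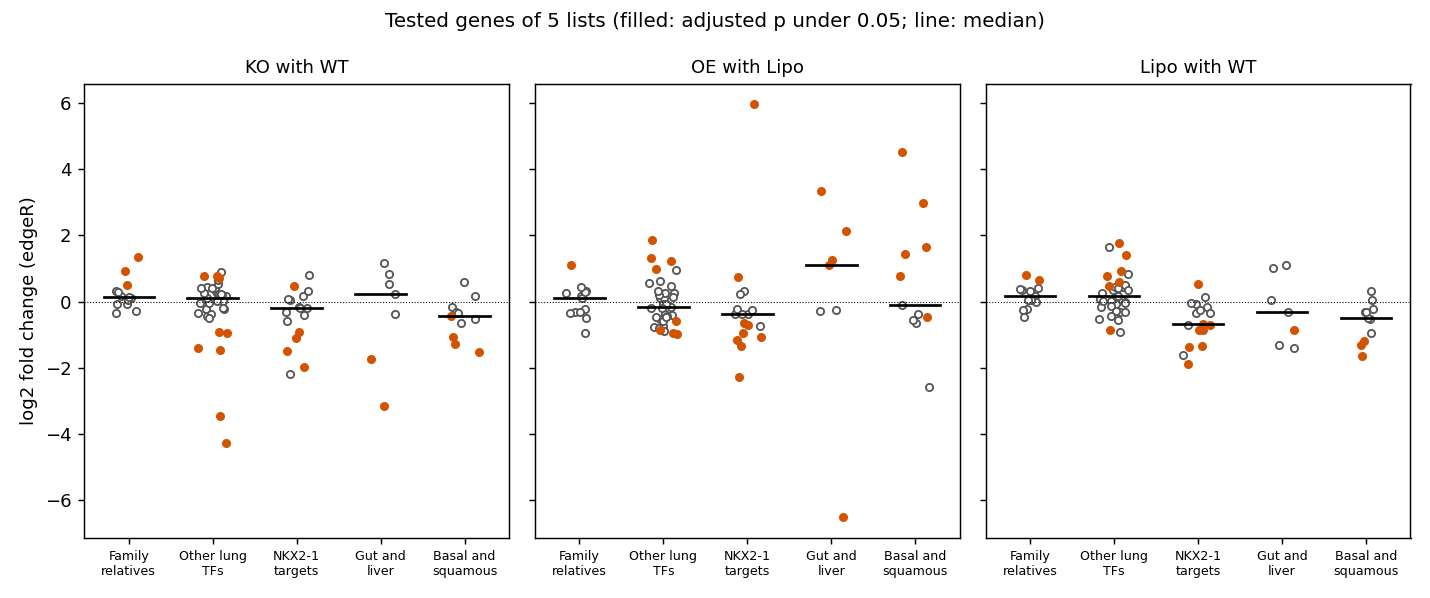
Log2 fold change of the tested genes of 5 lists in 3 comparisons, with 1 point per gene, filled where the adjusted p was under 0.05, and a line at the list's median. The NKX2-1 targets have medians below 0 in all 3 comparisons, and the gut and liver list has a median of 1.10 in OE against Lipo.

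Genes associated with HNF4A in gut and liver were mostly silent, as HNF4A was, with 7 of 30 tested. Of the 7, 4 rose and 1 fell in OE against Lipo, and the median was 1.10. AGR2, a protein disulfide isomerase of mucous cells, rose from 154 ± 9.73 to 330 ± 15.8 CPM, the protease inhibitor SERPINA1 from 36.9 ± 4.68 to 88.4 ± 2.42 CPM and cathepsin E, CTSE, from 0.544 ± 0.00409 to 5.49 ± 1.28 CPM (log2 3.32, and 2.02 against WT). The mucin MUC13 (1.88 ± 0.428 to 8.27 ± 3.57 CPM) lost its call without Lipo 2 (adjusted p = 0.0872) or OE 1 (0.117), and the count of 5 was 3 without either. Set against the same Lipo libraries, KO was also higher for CTSE (log2 2.12, adjusted p = 0.00813) and SERPINA1 (0.84, adjusted p = 0.0108). AGR2 (-0.42) and MUC13 (-0.78) did not pass there. The fibrinogen chain FGG had 22 reads over Lipo and none over OE. The 2 that fell in KO against WT, where none rose, were VSIG1 (291 ± 59.5 to 87.0 ± 16.0 CPM) and FGG (92 to 10 reads). The log2 change of VSIG1 was -0.87 against Lipo (adjusted p = 0.00375). Of the 92 reads of FGG, 60 came from WT 3, and its call was lost without WT 3 (log2 -2.12, adjusted p = 0.189), KO 2 (0.0887) or KO 3 (0.0737), against Lipo (-1.73, adjusted p = 0.232) and against all 5 wild-type-labelled libraries (0.0561). That count was 6 without WT 1, also with KO 1 left out, and 1 without WT 3, KO 2 or KO 3, with the stricter filter or with WT and KO fitted alone.

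Basal and squamous genes, the program TP63 is known for, had 11 of 20 members tested. In OE against Lipo 5 rose and 1 fell, PERP (log2 -0.47, adjusted p = 0.0342), which also fell in KO against WT. Of the 5, KRT6A missed the threshold for OE against WT (0.46, adjusted p = 0.205). KRT15 was lower in OE than in WT (-1.13, adjusted p = 0.00948). In KO against WT none rose and 4 fell, and all 4 (KRT6A, FGFBP1, KRT15 and PERP) missed the threshold against Lipo. KRT15 also missed it without WT 2 (adjusted p = 0.0575) or KO 2 (0.0544), and PERP without WT 2 (0.0616). Keratin 17, KRT17, rose in OE from 0.600 ± 0.377 to 13.6 ± 1.47 CPM (log2 4.50), TRIM29 from 1.95 ± 0.306 to 15.3 ± 0.146 CPM (2.96) and SFN, or 14-3-3 sigma, from 224 ± 14.7 to 385 ± 18.1 CPM (0.78). SFN lost its call without Lipo 2 (adjusted p = 0.0697) or OE 1 (0.0501). The growth factor carrier FGFBP1 fell in KO from 43.2 ± 17.4 to 17.7 ± 3.31 CPM against WT and rose in OE from 22.4 ± 0.975 to 60.3 ± 8.14 CPM against Lipo, but neither call held against the other control, with -0.34 for KO against Lipo (adjusted p = 0.392) and 0.48 for OE against WT (adjusted p = 0.175). Its WT libraries, at 62.6, 38.2 and 28.9 CPM, overlapped those of OE, at 66.0 and 54.5 CPM. TRIM29 was at 1.32 for OE against WT (adjusted p = 0.0157). For KO against Lipo, TRIM29 was at 1.33 (adjusted p = 0.0409), while KRT17 (-0.31) and SFN (-0.41) did not pass. The median of the 11 in OE was -0.11, on the opposite side from most of its calls. The count of 6 in OE was 3 without Lipo 2 and 10 when OE and Lipo alone were fitted, and the 4 in KO were 2 without WT 2.

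For each member called in any comparison, the 2 genes whose log2 level ran most like it over the 10 libraries were found by Pearson's r, which is a description, since the libraries share 4 groups. SOX2 ran closest to KRTCAP3 (r = 0.97) and STX10 (0.97), and FOXA2 to CTSH (0.94), a cathepsin of type 2 cells, and MMAB (0.94). SOX9 ran closest to ZSCAN29 (0.98) and to the noncoding SVIL-AS1 (0.98). GATA6 ran closest to CSF1 (0.99), the macrophage colony-stimulating factor, which was at 2.40 ± 0.277 CPM in Lipo and 41.5 ± 0.323 in OE, and to RCAN1 (0.99), a calcineurin regulator. TP63 ran closest to RLF (0.98) and ZNF189 (0.96), both zinc finger proteins.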

How the data were processed

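The authors deposited raw read counts per gene, whole numbers without normalization, for the 10 libraries. HISAT2 2.1.0, FastQC, featureCounts, edgeR and build GRCh38 are named in the submitters' processing notes, with no role or order, and the strand setting and annotation release are not given in the sources used here. Of 62710 rows 1 held no values and was left out. By their headers, the 2 unused columns hold a further Lipo replicate and a further OE replicate. No sample record was given for either, so Lipo and OE are described from 2 libraries each. Positions, exon lengths and overlaps come from GENCODE release 29, which held 58273 identifiers.

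Counts were tested with edgeR 4.0.16 (R 4.3.3): filterByExpr on the 4 groups (15832 genes), TMM scaling and a robust quasi-likelihood fit of all 10 libraries in which each group had its own coefficient, leaving 6 residual degrees of freedom. Tests were two-sided, with Benjamini-Hochberg adjustment over all tested genes and a threshold of 0.05. CPM uses the TMM-scaled library size. Levels are mean ± SD over libraries, SE is the log2 fold change over the square root of F, and log2 CPM for correlations used a prior count of 2. A count of 0 was given a floor of 3 counts.

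The members, lists and comparisons were chosen with earlier results of these data known. All members are named. From each other list, up to 4 genes with the smallest p in KO against WT and in OE against Lipo could be named, with neighbours of members that had reads. The test was checked on simulated data. Alternatives were DESeq2 1.42.0, scaling by RLE or by library size alone, no filter, a stricter filter (1 CPM in at least 3 libraries and 100 reads in all), leaving out mitochondrial and structural RNA genes, only the groups compared, a replicate block, other controls, and each library left out. Leaving out WT 1 with KO 1 and setting KO directly against OE were chosen after seeing the data.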

Additional observations from a re-analysis of the deposited data

Results flagged for a closer look

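The KO effect and the OE effect differed by the test of their difference for 5 members. The log2 difference was 2.79 for SOX2, 2.07 for FOXA2, -2.13 for SOX9, -1.61 for GATA6 and -0.83 for TP63. Each includes the difference between the WT and Lipo controls. With KO set directly against OE the values were 1.45 for SOX2, -1.52 for SOX9 and -1.61 for GATA6. FOXA2 (0.27) and TP63 (-0.26) did not pass there.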

How the results depend on the processing

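Of 616 recomputed log2 changes of members, 549 kept their sign and their side of the threshold, and 36 changed sign. With the sign kept, 23 lost and 8 gained a call. Calls lost or gained with a change of sign are counted only among the 36. These include SOX2 and FOXA2 in OE against WT, which lost their calls, and FOXA2 in KO against Lipo, which gained one. The cause of these changes was not tested. The number of members called in KO against WT was 1, or 0 against WT and Lipo together and 1 to 2 with a library left out. In OE against Lipo it was 5, or 2 against WT, 2 against WT and Lipo together, and 3 to 5 with a library left out. With OE and Lipo fitted alone it was 7, which includes log2 changes as small as -0.19 (FOXA1) and 0.19 (ELF3). The share of all genes called in that fit is not given here, so the 7 cannot be set beside it. In Lipo against WT the number of members called was 2 (1 to 3), and for the difference of effects 5 (4 to 5), or 3 with KO set directly against OE.

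Changes of sign with another control were as follows. In KO against WT and Lipo together, FOXA1 gave -0.085, FOXA2 -0.23 and TP63 0.032. In KO against Lipo, FOXA1 gave -0.27, FOXA2 -1.04, SOX9 0.15, TP63 0.41 and ELF3 -0.10. In OE against WT, NKX2-1 gave -0.27, FOXA1 0.13, FOXA2 0.49 and SOX2 0.25, and NKX2-1 gave -0.17 against WT and Lipo together. With KO set directly against OE, FOXA1 gave -0.078. Values near 0 changed sign elsewhere. NKX2-1 in OE was -0.00966 with library size alone, -0.0182 with no filter, -0.0112 without mitochondrial and structural RNA genes and -1.55e-04 with OE and Lipo alone. GATA6 in Lipo was -0.0564 with library size alone, -0.00324 with no filter, -0.00251 with the stricter filter and -2.49e-04 with Lipo and WT alone, and in KO it was 0.17 without WT 1 and KO 1 together. With a library left out, ranges that cross 0 were -0.10 to 0.18 for NKX2-1, -0.21 to 0.11 for GATA6 and -0.058 to 0.17 for ELF3 in KO, -0.0264 to 0.00973 for NKX2-1 in OE, -0.14 to 0.20 for GATA6 in Lipo, and -0.10 to 0.17 for NKX2-1 in the difference of effects.

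WT and KO share replicate numbers. Deviations from the group mean of libraries with the same number correlated at 0.33, 0.06 and 0.18 for numbers 1 to 3. Pairs with unlike numbers correlated between -0.24 and 0.09. Each KO library correlated best with the WT library of its own number, whereas WT 2 correlated best with KO 3 (0.09). These values do not settle whether the numbers pair the libraries, and the main fit used no pairing. With the replicate number as a block, 1 member was called in KO, SOX2 (log2 1.70), and 8 in place of 5 lung differentiation genes. KRT15 was not called with the block (adjusted p = 0.287). FOXA2 and GATA6 in WT rest on 109 and 330 reads, which limits small changes in them, and HNF4A could not be tested.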
